A study of Saturnispora dispora and Saturnispora hagleri and Saturnispora mendoncae with 16 samples.

Results

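The hexokinase (*HXK*) and phosphofructokinase (*PFK*) orthogroups, OG0000400 and OG0000052, were followed in 4 *Saturnispora* yeasts, 2 of the 5029 orthogroups of the expression table. They were chosen as the orthogroups of the sugar phosphorylation steps, and both were above 0 in all 16 libraries and passed the filter on low values that left 4232 orthogroups for testing. An orthogroup is a set of genes that descend from 1 gene of the common ancestor, and its expression is given as TPM, its share of the transcripts of a library after correction for gene length. TPM is a share, so the amount of a transcript per cell cannot be read from it.

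RNA-seq was done on 4 biological replicates of each species, all grown in synthetic complete medium with 2% glucose and collected in log phase. Cultures of *Sat. dispora* (Sdis) and of *Sat. hagleri* (Shag), whose extracellular acidification rate (ECAR), a proxy for the rate of glycolysis, is rapid, were harvested at 15 h. The species with a low ECAR, *Sat. mendoncae* (Smen) together with *Sat. silvae* (Ssil), were harvested at 18 h. No library carried a deletion or a transgene. ECAR class, hour of collection and descent change together and cannot be told apart, and each class is represented by 2 species.

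Hexokinase transfers a phosphate from ATP to glucose as the sugar enters the cell, which traps it and makes it available to every pathway of sugar metabolism. Phosphofructokinase adds another phosphate to fructose 6-phosphate, the step that commits the sugar to glycolysis, and its activity is known to respond to the energy state of the cell. In *S. cerevisiae* the enzyme is built from alpha and beta subunits encoded by separate genes, and the hexokinases differ in their response to glucose. The counts of single genes tied 1 gene to *HXK* in each species, namely g003536 in Sdis, g000782 in Shag, g001202 in Smen and g002671 in Ssil. Their coding lengths were alike, with 469 codons in Sdis and in Shag, 465 in Smen and 473 in Ssil. *PFK* held 2 genes in every species, which makes 12 genes in all. These were g002074 and g004092 in Sdis, g001509 and g004476 in Shag, g003091 and g003826 in Smen, and g000579 and g005168 in Ssil. Which of them encodes which subunit is not annotated in the sources used here. The summed coding length of the *PFK* genes was 1937 codons in Sdis and in Shag, 1914 in Ssil and 2981 in Smen. The additional 1044 codons of Smen enter its TPM as a divisor, and which of its genes carries them is not known. Counts and lengths were both summed over the genes, so the TPM of *PFK* is a mean over its genes weighted by length and not their sum.

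Between 6196684 and 13928456 counts fell in genes per library, with a median of 11266047. *HXK* received from 1233 counts in Ssil replicate 4, the shallowest library, to 23127.5 counts in Shag replicate 2. *PFK* received from 16510 to 49955.5 counts. Counting error alone would therefore give a coefficient of variation of at most 2.85% for a value of *HXK* and 0.778% for a value of *PFK*. Shag replicate 3 stood apart from its species, with a root mean square deviation of 0.473 on the log2 scale over all orthogroups, followed by Shag replicate 4 with 0.394, while the other libraries lay between 0.0867 and 0.225.

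*HXK* was high in both rapid ECAR species and low in both low ECAR species. In Sdis it measured 1051, 999.7, 1040.2 and 964 TPM in replicates 1 to 4 (mean 1014 ± 39.9, SD, n = 4). In Shag the values were 1345, 1402, 1125 and 1310.2 TPM (mean 1296 ± 119.9, SD, n = 4), with replicate 3 the lowest. None of the 8 values of these species lay below 964 TPM. Smen had 322, 302, 290.7 and 287.3 TPM (mean 300.4 ± 15.6, SD, n = 4). Ssil had 205, 176, 165 and 161 TPM (mean 177 ± 19.6, SD, n = 4), the lowest values of *HXK* in the series. The libraries of any 2 species did not overlap, and the share of all orthogroups that separate in this way was not counted. Ranked by TPM within a library, *HXK* stood between places 149 and 174 in the rapid ECAR species, between 465 and 508 in Smen and between 832 and 1173 in Ssil, of 4611 to 4840 orthogroups with a value.

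*PFK* did not follow the same order. In Sdis it measured 559, 509, 529 and 478 TPM in replicates 1 to 4 (mean 519 ± 34.0, SD, n = 4). Shag had 715, 733, 549 and 773 TPM (mean 693 ± 98.8, SD, n = 4), and replicate 3 again was the lowest. Without that replicate the Shag mean was 740.4 ± 29.4 TPM for *PFK* and 1352 ± 46.4 TPM for *HXK* (SD, n = 3). Smen had 188, 196, 183 and 192 TPM (mean 189.9 ± 5.34, SD, n = 4). Ssil, the other low ECAR species, had 593, 569.8, 529 and 532 TPM (mean 556 ± 30.7, SD, n = 4), within the range of the rapid ECAR species. Smen alone was set apart, and its values did not overlap those of the other 3 species. The share of all orthogroups in which Smen separates in this way was not counted. With the summed length of Sdis in place of its own, Smen would have 292.2 ± 8.22 TPM, still below all libraries of the other species. The place of *PFK* in a library was 210 to 277 in Sdis and Shag, 241 to 261 in Ssil and 705 to 743 in Smen.

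**Figure D1:**
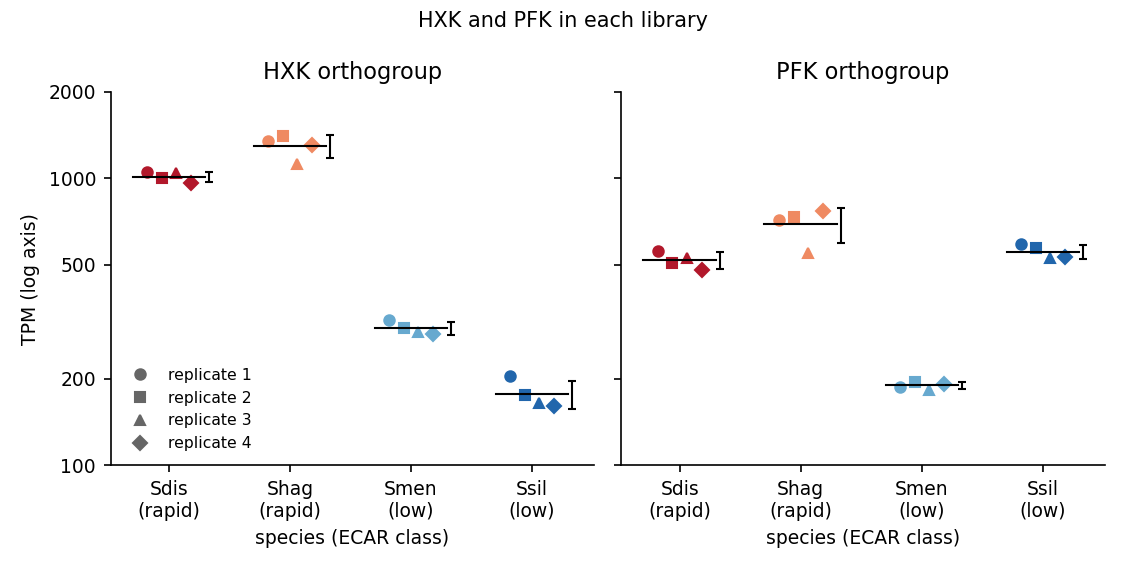
TPM of the *HXK* orthogroup (left) and the *PFK* orthogroup (right) on a log axis for each of the 16 libraries, with the mean (line) and SD (bar) of each species, n = 4. *HXK* is at 964 TPM or more in every library of Sdis and Shag and at 322 TPM or less in every library of Smen and Ssil, whereas *PFK* of Ssil, at 529 to 593 TPM, lies among the rapid ECAR species.

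To ask whether these levels differed between species, log2(TPM + 1) of all tested orthogroups was compared with limma, with calls made below an adjusted p of 0.05. Closely related as they are, the species differed in most of their orthogroups, so a call in a single pair is not unusual. Sdis was called higher than Smen in 26.4% of the 4232 orthogroups and higher than Ssil in 19.9%. Shag was called higher than Smen in 37.3% and higher than Ssil in 22.6%. Smen was called higher than Ssil in 22.1% and lower in 62.1%, and Shag was called higher than Sdis in 57.2%. Only 5.65% of orthogroups were called higher in rapid ECAR species in all 4 rapid–low pairs, the pairs of 1 rapid and 1 low ECAR species, and 20.8% were called lower.

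*HXK* was called in all 6 species pairs. In either direction, from 2947 (Shag minus Smen) to 3799 (Sdis minus Ssil) of the 4232 orthogroups were called in a pair. The share called in all 6 pairs was not counted. Its TPM in Sdis was 3.38 times that in Smen (log2 difference 1.75, SE 0.09) and 5.74 times that in Ssil (2.52, SE 0.09). In Shag it was 4.31 times that in Smen (2.102, SE 0.09) and 7.33 times that in Ssil (2.87, SE 0.09). The largest limma adjusted p of these 4 pairs was 2.4e-11, so *HXK* belonged to the 5.65% higher in both rapid ECAR species. Averaged over the species of each class, it was higher by 2.31 in rapid ECAR species (log2, SE 0.06, limma adjusted p = 6.8e-15), which ranked it 70 among the 4232 orthogroups from the highest. The SE and p of a class difference rest on the spread between replicates within species and leave out the spread between the 2 species of a class. The low ECAR species differed from each other as well, since Smen exceeded Ssil by 0.77 (SE 0.09, limma adjusted p = 4.0e-07) in TPM and by 1.47 after median-ratio rescaling. Shag exceeded Sdis by 0.35 (SE 0.09, limma adjusted p = 0.00206) in TPM, but this difference reversed to -0.082 after median-ratio rescaling (limma adjusted p = 0.469).

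*PFK* was called higher in 3 of the 4 rapid–low pairs, and so was not among the 5.65%. Both of the large differences were with Smen. Sdis exceeded Smen by 1.44 (SE 0.09, limma adjusted p = 7.1e-10) and Shag exceeded Smen by 1.85 (SE 0.09, limma adjusted p = 3.4e-11). Shag exceeded Ssil by 0.31 (SE 0.09, limma adjusted p = 0.00696), although Shag replicate 3 fell among the Ssil libraries. The difference of Sdis minus Ssil was -0.10 and was not called (SE 0.09, limma adjusted p = 0.322). Smen and Ssil, which share the low ECAR class, differed by -1.54 (Smen minus Ssil, SE 0.09, limma adjusted p = 1.4e-10), and by -0.84 after median-ratio rescaling. Averaged over classes, the rapid ECAR species were higher by 0.87 (SE 0.07), at place 372 from the highest. With the summed length of Sdis given to Smen, an alternative chosen after seeing the data, the differences of Sdis and Shag from Smen were 0.82 and 1.23, Smen minus Ssil was -0.92, and the same pairs were called.

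Exact two-sided permutation tests of the TPM values gave p = 0.0286, the smallest that 4 against 4 libraries allow, for the 6 pairs of *HXK* and for the 3 pairs of *PFK* that include Smen, and 0.0381 after adjustment over the 12 comparisons. The other pairs of *PFK* did not pass. Shag against Sdis gave an exact permutation p of 0.0571, Shag against Ssil 0.0857 and Sdis against Ssil 0.143, and their libraries overlapped. For the first pair and the second, limma and the permutation test thus fell on different sides of the threshold.

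The scale of the libraries bears on these differences, because the median orthogroup was not at 0. In TPM the median difference over all 4232 orthogroups was 0.42 for Shag minus Sdis, -0.33 for Sdis minus Smen, -1.06 for Sdis minus Ssil, 0.06 for Shag minus Smen, -0.63 for Shag minus Ssil and -0.68 for Smen minus Ssil. The 100 most abundant orthogroups held 55.2% ± 0.738 of the TPM in Sdis, 47.0% ± 4.02 in Shag, 44.9% ± 0.293 in Smen and 41.7% ± 0.626 in Ssil (SD, n = 4), and the part of this in the medians was not tested. After subtraction of this median, *HXK* of Sdis was higher by 2.08 than that of Smen and by 3.58 than that of Ssil, and *HXK* of Shag by 2.04 and 3.50. The same differences of *PFK* were 1.78 and 0.96 for Sdis and 1.79 and 0.94 for Shag, so relative to the median orthogroup *PFK* too was higher in each rapid ECAR species than in each low ECAR species. Between Shag and Sdis the differences from the median were -0.068 for *HXK* and -0.012 for *PFK*.

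After median-ratio rescaling, which divides each library by the median of its ratios to a common reference, *PFK* of Sdis was called higher than that of Ssil by 0.97 (SE 0.08, limma adjusted p = 5.8e-09), against -0.10 and no call in TPM, and *PFK* was then called higher in all 4 pairs. Neither gene was called between Shag and Sdis on this scale, with -0.082 for *HXK* and -0.025 for *PFK*. The number of orthogroups higher in rapid ECAR species in all 4 pairs moved from 239, with 882 lower, to 557, with 620 lower. *HXK* remained called higher in all 4 pairs with a mean difference of 2.81, and *PFK* of Smen minus Ssil remained called at -0.84 (limma adjusted p = 4.1e-08).

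**Figure D2:**
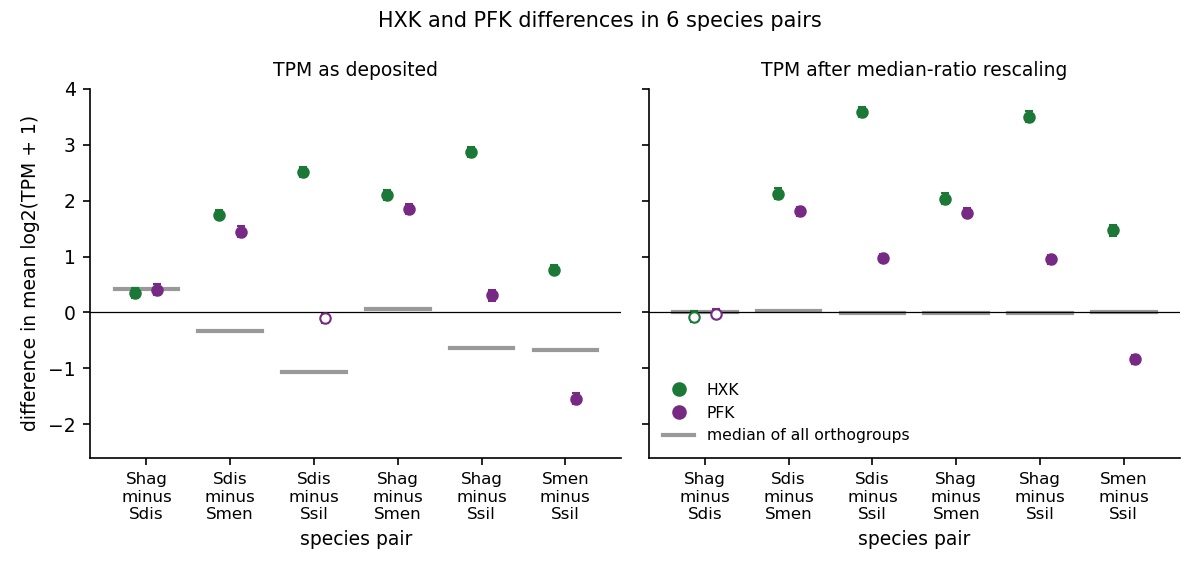
Difference in mean log2(TPM + 1) of *HXK* and *PFK* with its SE for the 6 species pairs, from TPM as deposited (left) and after median-ratio rescaling (right). Filled points were called by limma, open points were not, and grey lines mark the median of the 4232 orthogroups. *PFK* of Sdis minus Ssil moves from -0.10 to 0.97 with the rescaling, and both genes lie at the median for Shag minus Sdis.

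The ratio of *PFK* to *HXK* within a library does not depend on how libraries are scaled to each other by a common factor, and it separated Ssil from the other species. In Sdis the TPM of *PFK* was 0.532, 0.509, 0.509 and 0.496 times that of *HXK* in replicates 1 to 4 (mean 0.512 ± 0.0148, SD, n = 4). In Shag the ratio was 0.532, 0.523, 0.488 and 0.590 (mean 0.533 ± 0.0423, SD, n = 4). In TPM *HXK* thus exceeded *PFK* in all 8 libraries of the rapid ECAR species. In Smen the ratio was 0.584, 0.649, 0.631 and 0.670 (mean 0.633 ± 0.0364, SD, n = 4). In Ssil it was 2.90, 3.24, 3.20 and 3.31 (mean 3.16 ± 0.181, SD, n = 4). On this scale *PFK* exceeded *HXK* only in the libraries of Ssil. The order within a library rests on the TPM of *PFK* being a mean over 2 genes, since a sum over them would be higher, and in counts *PFK* exceeded *HXK* in every species.

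The log2 of the ratio differed by -2.63 for Sdis minus Ssil, -2.57 for Shag minus Ssil and -2.32 for Smen minus Ssil, so the ratio in Ssil was 6.17, 5.93 and 4.99 times those of the other species. For each of these 3 pairs, and for Sdis minus Smen with -0.31, the exact two-sided permutation test gave p = 0.0286, which became 0.0429 after adjustment over the 6 pairs. Shag minus Smen was -0.25, and Shag replicate 4 overlapped the Smen libraries (exact permutation p = 0.0571, adjusted 0.0686). This pair turns on the length of *PFK* in Smen. With the length of Sdis the Smen ratio was 0.975 ± 0.0560 and the difference from Shag -0.87 (exact permutation, adjusted p = 0.0343). The 2 rapid ECAR species differed by 0.057 (Shag minus Sdis, exact permutation p = 0.429), less than the pooled SD of 0.085 between replicates, and by 0.0070 without Shag replicate 4 and 0.098 without Shag replicate 3. In counts, without any length, *PFK* had 2.11 ± 0.0611 times the reads of *HXK* in Sdis, 2.20 ± 0.175 in Shag, 4.06 ± 0.233 in Smen and 12.8 ± 0.733 in Ssil (SD, n = 4), and the low ECAR species then lay above both rapid ECAR species.

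**Figure D3:**
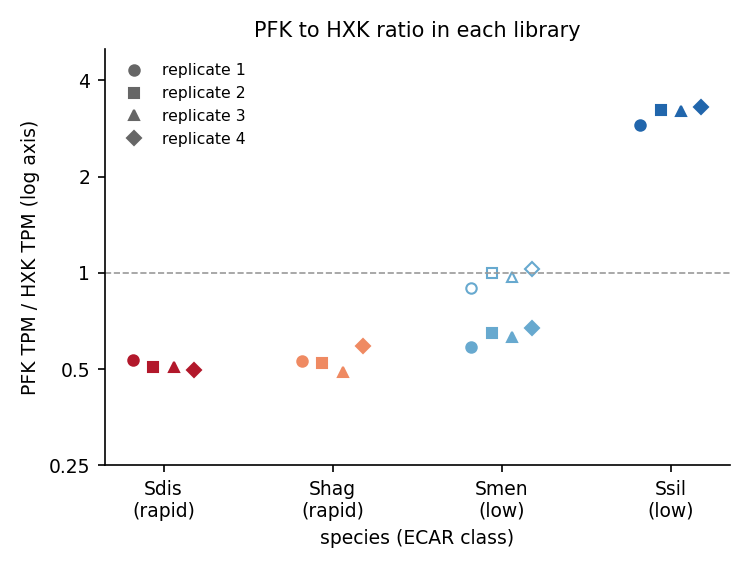
TPM of *PFK* divided by TPM of *HXK* on a log axis in each of the 16 libraries, with open symbols for Smen computed with the *PFK* length of Sdis and a dashed line at equal levels. The ratio is 0.488 to 0.670 in Sdis, Shag and Smen and 2.90 to 3.31 in Ssil.

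The 2 genes of *PFK* were expressed at similar counts in every species. In Sdis g002074 received 46.9%, 48.2%, 46.9% and 44.8% of the *PFK* counts in replicates 1 to 4, and g004092 the rest. In Ssil g000579 received 46.8%, 45.3%, 43.2% and 44.7%. In these species the same gene was the higher in all 4 libraries, by 1.07 to 1.23 times for g004092 in Sdis and by 1.14 to 1.31 times for g005168 in Ssil. In Smen the shares of g003091 were 49.2%, 48.9%, 49.8% and 50.4%, so in counts the genes were within 1.05 times of each other and replicate 4 had the opposite order. These shares are not corrected for length. Which gene of Smen carries its additional codons is not known, so similar counts need not mean similar levels.

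Shag was less steady, with shares of g001509 of 46.7%, 50.2%, 45.2% and 50.8%. Replicates 1 and 3 had more counts in g004476, and replicates 2 and 4 more in g001509. The exact 95% binomial interval of the share was 44.7% to 45.7% in replicate 3 and 50.3% to 51.2% in replicate 4, so the spread between these libraries was wider than counting error, which is all that the intervals cover. The mean shares were 46.7% ± 1.40 for g002074, 48.2% ± 2.70 for g001509, 49.6% ± 0.665 for g003091 and 45.0% ± 1.47 for g000579 (SD, n = 4). The shares were not tested, and they were not compared between species, because the lengths of the single genes are not known and no source used here matches the genes across species.

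As CPM, counts scaled to the same library total of reads in genes, the genes of *PFK* in Smen had 883 ± 16.7 CPM for g003091 and 899 ± 29.8 CPM for g003826. In Ssil g000579 had 1251 ± 107 CPM and g005168 had 1524 ± 47.1 CPM. Sdis had 1554 ± 113 CPM for g002074 and 1771 ± 90.7 CPM for g004092, and Shag had 2015 ± 308 CPM for g001509 and 2149 ± 177 CPM for g004476 (SD, n = 4). CPM is not corrected for length, and no order of genes is read from it. Of the 32 counts of *PFK* genes 17 were not whole, and of the 16 of *HXK* 6, which shows that some read pairs had been shared with another gene.

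**Figure D4:**
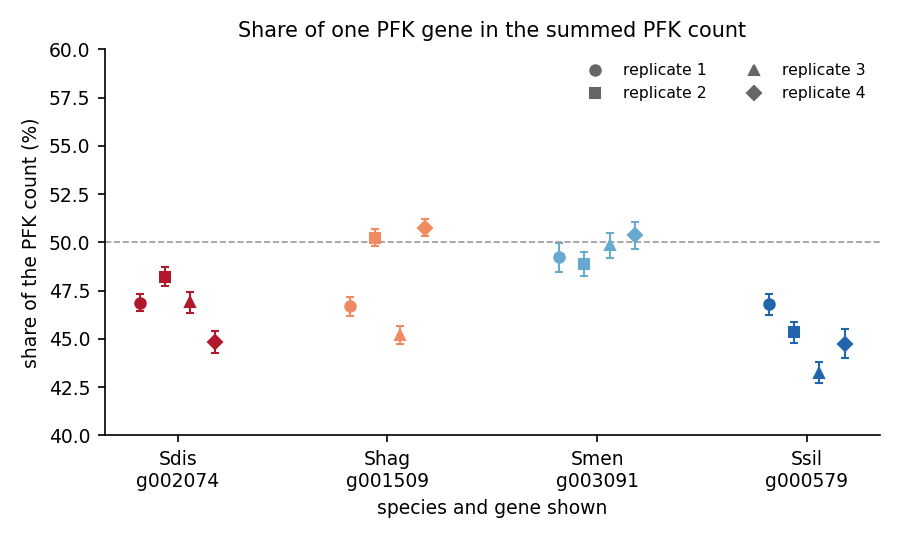
Share of 1 of the 2 *PFK* genes in the summed *PFK* count of each library, in percent, with the exact 95% binomial interval, on an axis that does not start at 0. The dashed line marks equal counts. The share stays below 50% in Sdis and Ssil, near 50% in Smen, and on both sides of it in Shag.

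The other genes of the pathway that could be named were *HXT* (hexose transporters), *FBA* (aldolase), *TPI* (triose phosphate isomerase), *TDH* (glyceraldehyde-3-phosphate dehydrogenase), *GPM* (phosphoglycerate mutase), *ENO* (enolase) and *ADH* (alcohol dehydrogenase). *TPI* had no value in Sdis and was not tested. Of the 6 tested, 5 were called higher in all 4 rapid–low pairs, as *HXK* was, both in TPM, where 5.65% of all orthogroups were, and after the rescaling, where 13.2% were. *HXT* was among the 5. Its TPM, like that of *PFK*, divides summed counts by the summed length of the genes in the orthogroup. Where it holds more than 1 gene, this is a mean over them and not their sum. How far its rapid–low differences depend on the summed length was not tested. *ADH* was the exception. In TPM it was at 2350.3 ± 193 in Ssil and 2295 ± 217 in Sdis (SD, n = 4), and it was called lower in Shag than in Ssil (-1.03, SE 0.10, limma adjusted p = 6.0e-08), a pair in which *PFK* was called higher. The median difference of these 6 in TPM was 1.72 for Sdis minus Smen and 0.98 for Sdis minus Ssil, against medians of -0.33 and -1.06 over all orthogroups.

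Between the low ECAR species the neighbouring steps were called in opposite directions. *HXT*, the step before *HXK*, was higher in Smen than in Ssil by 1.72 (SE 0.07, limma adjusted p = 1.5e-12), with 714 ± 35.6 against 216 ± 6.38 TPM. *FBA*, the step after *PFK*, was lower in Smen, with a difference of -1.31 (SE 0.11, limma adjusted p = 4.9e-09), with 1715 ± 66.9 against 4285 ± 705 TPM. Both calls held after the rescaling. In this pair *HXK* was thus called in the direction of *HXT* and *PFK* in that of *FBA*. Of the 6 genes, 1 was called higher and 3 lower in Smen than in Ssil in TPM, where 22.1% of all orthogroups were called higher and 62.1% lower. After the rescaling 3 were higher and 2 lower, beside 41.5% and 41.8% of all orthogroups, so these counts lie near the background.

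Within a library, *HXK* had 0.454 ± 0.0289 times the TPM of *HXT* in Sdis, 0.531 ± 0.0214 in Shag, 0.421 ± 0.00879 in Smen and 0.822 ± 0.113 in Ssil. In counts, without any length, the ratio was 0.402 ± 0.0255 in Sdis, 0.472 ± 0.0190 in Shag, 0.182 ± 0.00380 in Smen and 0.347 ± 0.0478 in Ssil. Ssil thus had the highest mean in TPM but a lower mean than both rapid ECAR species in counts. Its place depends on the coding lengths, which for *HXT* are summed over the genes of the orthogroup. The parts of gene number and of single gene length in this were not tested. *FBA* had 16.2 ± 0.595 times the TPM of *PFK* in Sdis, 14.6 ± 1.501 in Shag, 9.04 ± 0.464 in Smen and 7.67 ± 0.886 in Ssil (SD, n = 4). The ratio of *FBA* to *PFK* in counts was 1.09 ± 0.0557 in Smen and 1.44 ± 0.166 in Ssil (SD, n = 4). Both were below those of Sdis and Shag. The order of Smen and Ssil thus reversed without gene length and depends on it. These ratios were not tested. *PFK* had the lowest mean TPM of the named genes of the pathway in the 3 species other than Ssil, where *HXK* had the lowest. The place of *PFK* rests on its TPM being a mean over its genes, and in counts *PFK* exceeded *HXK* in every species. The gene of the transcription factor *GAL4* measured 77.0 ± 4.73 TPM in Sdis, 80.3 ± 8.84 in Shag, 68.3 ± 1.14 in Smen and 169 ± 12.3 in Ssil. Its log2 difference for Sdis minus Ssil was -1.12, near the median of -1.06 over all orthogroups. For Shag minus Ssil it was -1.07 beside a median of -0.63, and for Smen minus Ssil -1.29 beside -0.68.

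**Figure D5:**
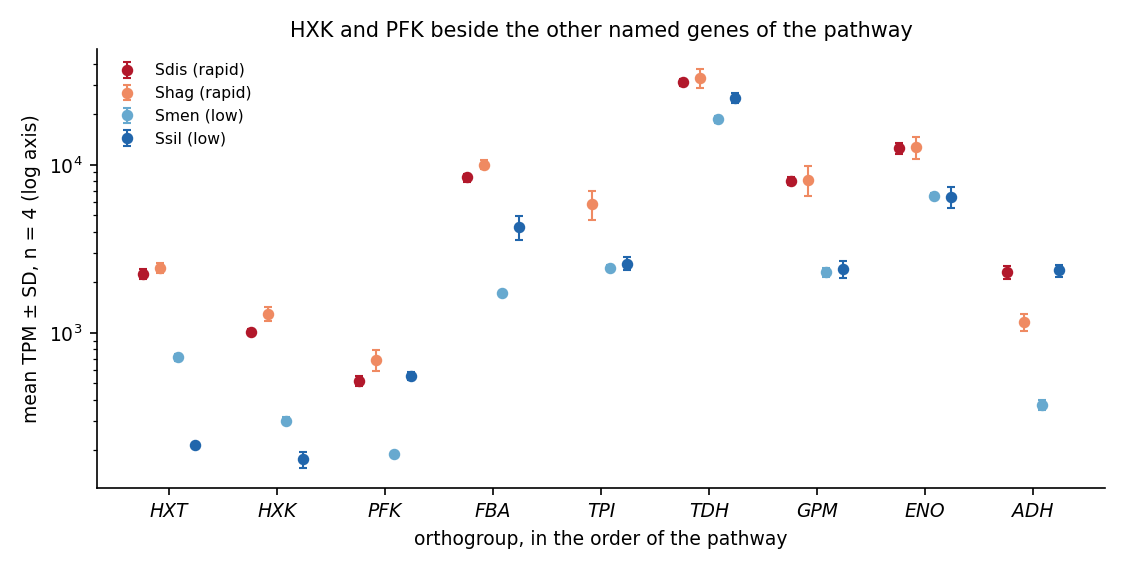
Mean TPM with SD (n = 4) on a log axis of *HXK*, *PFK* and the other named genes in the order of the pathway, for the 4 species; *TPI* has no value in Sdis. *HXT*, *HXK* and *ENO* have their lowest mean in Ssil, and *PFK*, *FBA*, *TPI*, *TDH*, *GPM* and *ADH* have theirs in Smen, although *GPM* and *ENO* were not called between these species in TPM.

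The patterns of other orthogroups were compared with those of *HXK* and *PFK* by the root mean square difference of log2(TPM + 1), each centred on its mean over the 16 libraries. Of the 4231 others, the nearest to *HXK* were OG0000254 (0.19), OG0004228 (0.29) and OG0000523 (0.37), which the sources used here do not name. OG0000254 had mean TPM of 816 in Sdis, 891 in Shag, 265 in Smen and 159 in Ssil. OG0004228 was low throughout, with mean TPM of 8.12 in Sdis, 16.1 in Shag, 1.92 in Smen and 0.503 in Ssil. At such values the added 1 shrinks differences, so its place near *HXK* depends on it. *HXT* came 4th with 0.38 and *GPM* 13th with 0.42, while *PFK* came 586th with 1.09. The nearest to *PFK* were OG0002180 and OG0001858, both at 0.15, and OG0003284 at 0.17, again without a name. OG0002180 had mean TPM of 208 in Sdis, 294.5 in Shag, 78.8 in Smen and 194 in Ssil. Among the named genes *TDH* was nearest to *PFK*, in place 200 with 0.45. The points of such a comparison share their libraries, and it was not tested.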

How the data were processed

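RNA was extracted with phenol from 4 biological replicates of 4 species, poly(A) RNA was enriched, and directional paired-end libraries were sequenced. Per the submitters' processing notes, reads were handled with Trimmomatic 0.30, FastQC, HISAT2 2.1.0 and HTSeq 2.0.3. The genome builds are not given in the sources used here. The deposited values per gene are expected counts with fractions, since HTSeq divided a pair that matched several genes among them. The authors made the TPM values by summing counts and gene lengths over each OrthoFinder orthogroup and computing TPM with edgeR. Reads without a gene, 4.10% to 19.0% of a library, stayed out of totals and tests.

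Genes were tied to orthogroups where a gene, or a sum of genes, matched the proportions of the TPM over a species' 4 libraries to within 1e-08, and lengths follow from the scale. Linked orthogroups carried 99.8% to 99.99% of the TPM, and 4216 of the 4232 had links in every species. The study has a second hexokinase orthogroup, which is not named in the tables read here and was not analysed here. *HXK* is named in these tables for Sdis and Shag and *PFK* for Sdis, Shag and Ssil, and values of the other species are those of the same orthogroup.

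Log2(TPM + 1) of the 16 libraries was tested with limma 3.58.1 (R 4.3.3), with a mean per species, an intensity trend and Benjamini-Hochberg adjustment. Orthogroups entered if every species had a value above 0 and the mean reached 5 TPM. These log2 differences understate changes of low values. Permutations used SciPy 1.17.1. No 2 replicates agreed within sampling noise, with a chi-square per degree of freedom of 4.40 to 333 over 24 pairs. The scripts were tested on simulated data. Alternatives were another pseudocount, other filters, median-ratio and quantile scaling, no gene length, a replicate block, no trend, the 2 species compared alone, edgeR 4.0.16 and DESeq2 1.42.0 on rounded counts with length offsets, each library left out and, chosen after seeing the data, the Sdis length for *PFK* of Smen. The text names *HXK*, *PFK* and its genes, the other pathway genes named in the study's tables, *GAL4* and the 3 orthogroups most like each of *HXK* and *PFK*. Members, lists and tests were chosen with earlier results of these data known.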

Additional observations from a re-analysis of the deposited data

How the results depend on the processing

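*HXK* kept its direction and its call in the 4 rapid–low pairs and in Smen against Ssil under all alternatives run. The size of the last was 0.77 in TPM and 0.72 to 0.84 with each library left out in turn. It was 1.47 with median-ratio rescaling, 1.44 with edgeR and 1.47 with DESeq2. Shag minus Sdis was the exception. For *HXK* it was -0.082 with median-ratio rescaling, -0.046 with edgeR, -0.080 with DESeq2 and 0.12 with quantile normalization, with adjusted p from 0.249 to 0.691 in limma, edgeR and DESeq2. For *PFK* it was -0.025 with median-ratio rescaling, 0.0094 with edgeR and -0.025 with DESeq2, and was not called. *PFK* of Sdis minus Ssil was 0.97 with median-ratio rescaling, 0.93 with edgeR, 0.98 with DESeq2 and 0.26 without gene length, each called, against -0.06 with quantile normalization. *PFK* was then also called higher in all 4 pairs, with mean differences of 1.38, 1.37, 1.38 and 0.74. The cause was not tested. The ratio of *PFK* to *HXK* passed for Shag minus Smen in counts (-0.88) and with the Sdis length (-0.87), and for Shag minus Sdis with quantile normalization (0.15). Leaving out each library in turn changed no call of either gene. The difference between the class means ran from 2.29 to 2.35 for *HXK* and from 0.85 to 0.93 for *PFK*, and *PFK* of Sdis minus Ssil from -0.14 to -0.06. With 3 against 4 libraries the permutation of the ratio cannot pass, so only its values were compared, and they moved by less than the SD of replicates. Same-numbered libraries did not consistently deviate together, with correlations of -0.33 to 0.38 over 24 pairs, 8 of them over 0.1. For 4 of the 16 libraries the mean correlation with other species was highest at their own number. A replicate block changed no call in limma, with 0.35 for *HXK* of Shag minus Sdis (adjusted p = 0.00153), and for the ratio its exact test cannot go below 0.125. The fit of 2 species alone gives no value for the classes. The shallowest library limits *HXK* of Ssil most, by the counting error given above.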
